A study of Mus musculus with 79 samples.

Results

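Mast cell protease transcripts were described here through 6 genes, Mcpt1, Mcpt2, Mcpt4, Cma1, Cpa3 and Tpsb2, each measured by 1 probeset, out of 22335 named genes and 35556 probesets on the array. The genes were selected by name, and on these same arrays: the values of the parental strains, the spread over strains and the agreement between the diets chose them, so those 3 features are given below as a description with no test. Whether the genes follow mast cell content or vary singly was also in view when they were selected. The arrays measured total RNA of whole quadriceps from male mice of the BXD family, inbred lines bred from the parental strains DBA/2J and C57BL/6J. There were 42 arrays of mice on chow diet (CD, from Harlan), 1 for each of 40 BXD strains and both parents, and 37 arrays of the same strains on high fat diet (HFD, from Harlan), so that 5 strains had a CD array alone. HFD was given from 8 weeks of age, and all mice were fasted overnight and killed at 29 weeks. Each array held RNA pooled from about 5 mice of 1 strain on 1 diet, so no spread between animals was measured and a strain on a diet had 1 value.

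Mast cells are tissue-resident immune cells that store proteases in granules, bound to the proteoglycan serglycin, and release them when the IgE receptor or other receptors are engaged. Their proteases fall into chymases, which cleave after aromatic residues, tryptases, which cleave after basic residues, and carboxypeptidase A3. In mice, mast cells of connective tissue typically hold the chymases encoded by Mcpt4 and Cma1, the tryptase encoded by Tpsb2 and the carboxypeptidase encoded by Cpa3, whereas the chymases encoded by Mcpt1 and Mcpt2 are known from mast cells of mucosal surfaces. Skeletal muscle holds mast cells in its connective tissue, mostly near vessels.

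The 4 chymase genes lie in a single cluster on mouse chromosome 14, in the order Cma1, Mcpt1, Mcpt2 and Mcpt4 among the members, with their relatives Cma2 and Mcpt9 and several granzyme genes between and beside them. Cpa3 lies on chromosome 3 and Tpsb2 on chromosome 17. RefSeq upstream sequences (GRCm38.p6, the C57BL/6J reference) were matched for 4 of the 6 genes. The 250 bases before the start of each are shown because 2 of these genes, Cpa3 and Mcpt4, rose and fell together over the strains. Mcpt1, whose probeset was dim, did not follow them. Capitals mark GATAA on either strand, the letters bound by GATA factors, of which mast cells use Gata2.

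Cpa3 (chr3:20242182-20242431, minus strand): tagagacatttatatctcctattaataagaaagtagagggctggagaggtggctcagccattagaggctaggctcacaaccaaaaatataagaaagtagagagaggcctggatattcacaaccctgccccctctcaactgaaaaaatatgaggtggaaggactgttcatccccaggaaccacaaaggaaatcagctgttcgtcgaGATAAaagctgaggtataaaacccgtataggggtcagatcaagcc
Mcpt4 (chr14:56062311-56062560, minus strand): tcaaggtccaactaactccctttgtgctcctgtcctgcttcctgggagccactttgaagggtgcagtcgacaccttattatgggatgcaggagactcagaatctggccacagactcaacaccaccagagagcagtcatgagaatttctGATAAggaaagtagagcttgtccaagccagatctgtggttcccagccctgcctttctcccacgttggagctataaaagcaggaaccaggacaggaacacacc
Mcpt1 (chr14:56017714-56017963, plus strand): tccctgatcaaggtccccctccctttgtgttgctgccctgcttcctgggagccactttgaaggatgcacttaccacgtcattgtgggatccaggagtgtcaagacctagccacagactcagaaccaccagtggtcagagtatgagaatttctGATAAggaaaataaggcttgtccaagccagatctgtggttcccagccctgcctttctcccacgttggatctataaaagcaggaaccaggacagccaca
Cma1 (chr14:55944676-55944925, minus strand): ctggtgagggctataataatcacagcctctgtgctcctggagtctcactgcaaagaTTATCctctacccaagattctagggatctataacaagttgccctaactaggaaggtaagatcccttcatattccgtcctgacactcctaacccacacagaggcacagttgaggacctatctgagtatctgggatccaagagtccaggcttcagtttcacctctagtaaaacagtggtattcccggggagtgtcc

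GATAA was found once in each of these 4 windows, against a share of 22.6% of all 32851 promoter windows of the same length that held it on either strand. The E-box CANNTG was found 2 times for Cpa3, 1 time for Cma1 and not for Mcpt4 or Mcpt1, against 66.2% of all windows with at least 1. The windows of Mcpt1 and Mcpt4 shared 209 identical bases in a global alignment, 83.6% of their length, whereas Mcpt4 and Cpa3 shared 50.8%, near the 49.6% of Mcpt1 and Cpa3. Over the strains Mcpt1 and Mcpt4 had r of -0.144 on CD and 0.047 on HFD. The Mcpt1 probeset was dim, at the 10.3rd percentile of probeset means, and its r between the diets was -0.254. The part of this in the low r with Mcpt4 was not tested. The GATAA and E-box matches describe letters and not binding.

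Values were deposited as scores on a log-type scale whose base was not stated, with every array set to a mean of 8.0 and an SD of 2.0. All levels and differences below are in these score units, and levels of different genes were not compared as amounts of transcript because each probeset has its own response. Percentiles of a probeset's mean among all probesets are given only to say how bright its signal was on the array. The 8 skeletal muscle markers averaged between 14.03 (Myh1, a myosin heavy chain) and 15.16 (Acta1, skeletal actin) over all arrays, above 99.6% of probesets or more, so the tissue label held. Markers of the mast cell itself were near the dim end: of 9 mast cell markers that were not members (Kit, Ms4a2, Fcer1a, Hdc, Gata2, Mrgprb1, Mrgprb2, Slc18a2 and Il1rl1), 4 were in the lowest 25% of all probesets and only Gata2 was above the median probeset. Among the protease probesets, that of Mcpt1 was at the 10.3rd percentile by its mean signal, Cma1 at the 40.2nd, Mcpt2 at the 52.3rd, Cpa3 at the 57.1st, Mcpt4 at the 59.3rd and Tpsb2 at the 60.1st. RNA was extracted, and arrays run, in 2 batches that each held both diets (18 CD and 17 HFD arrays in batch 1, 24 and 20 in batch 2). In bulk muscle, fewer mast cells and less RNA per mast cell cannot be told apart.

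Mcpt2, a chymase gene, was the member that varied most over strains. On CD it ran from 5.54 (BXD101) through a median of 8.21 to 9.38 (BXD97), a range larger than that of 99.8% of all probesets. On HFD it ran from 5.38 (BXD68) through 8.64 to 9.64 (BXD84), a range larger than that of 99.9%. The values left a gap. On CD, 11 strains lay between 5.54 and 6.63 (mean 6.03 ± 0.36, SD) and 31 strains between 7.62 and 9.38 (mean 8.52 ± 0.51), and the gap of 0.99 between them compared with 0.31 for the next widest gap. On HFD, 10 strains lay between 5.38 and 6.40 (mean 6.05 ± 0.30) and 27 between 7.74 and 9.64 (mean 8.83 ± 0.45), with a gap of 1.34 against 0.47. As a description of the same values and not a test, a mixture of 2 normal distributions lowered the Bayesian information criterion (BIC) by 21.7 on CD and 34.7 on HFD relative to 1 distribution, and for Mcpt2 alone among the 6 genes did this drop exceed 10.

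**Figure D1:**
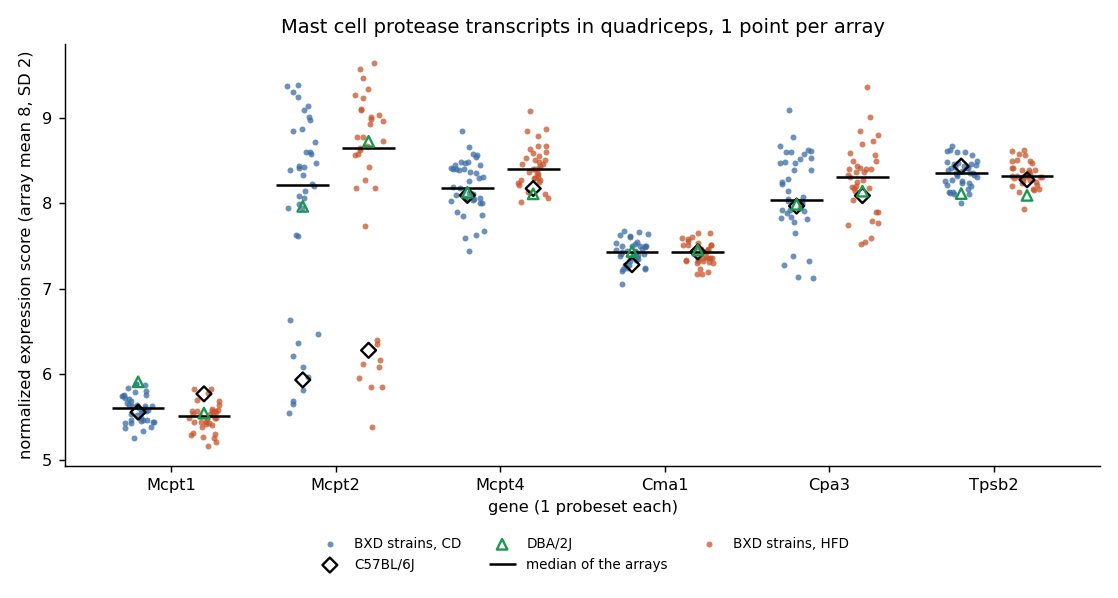
Normalized score (y axis) of each protease gene (x axis) on every array, CD in blue and HFD in orange, with C57BL/6J as diamonds, DBA/2J as triangles and the median of the arrays as a bar. Mcpt2 splits into a low group (up to 6.63 on CD and 6.40 on HFD) and a high group (from 7.62 and 7.74), with C57BL/6J in the low and DBA/2J in the high group, and the other 5 genes do not split.

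The strains of the low group were the same on both diets. All 37 strains with 2 arrays kept their side, 10 low on both and 27 high on both, and none switched. The low strains were C57BL/6J, BXD43, BXD45, BXD49, BXD51, BXD56, BXD68, BXD69, BXD87 and BXD98, plus BXD101, which had a CD array alone. Among the BXD strains, 10 were low and 30 high on CD. The low CD arrays came from both batches, 5 from batch 1 and 6 from batch 2. The strain just inside the low group on CD was BXD45 at 6.63 (6.35 on HFD), and the strain just outside it was BXD100 at 7.62.

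Both parents fell on opposite sides. C57BL/6J had Mcpt2 at 5.94 on CD and 6.28 on HFD, and DBA/2J had 7.96 and 8.72. C57BL/6J minus DBA/2J was -2.24 on average over both diets, where the SD between the diets within a strain was 0.34. DBA/2J was not at the top of the panel, ranking 16th from the lowest of 42 arrays on CD and 21st of 37 on HFD, so that many BXD strains had more Mcpt2 signal than either parent.

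The other members did not separate the parents in this way. Cpa3 was 7.97 and 8.09 in C57BL/6J and 7.99 and 8.14 in DBA/2J (CD and HFD), a mean difference of -0.04 against a within-strain SD of 0.33. Mcpt4 was 8.09 and 8.17 in C57BL/6J and 8.13 and 8.11 in DBA/2J, a mean difference of 0.01 against 0.24. Both genes therefore differed between the parents by much less than between the diets of a strain. Cma1 was 7.28 and 7.43 in C57BL/6J and 7.44 and 7.45 in DBA/2J, a mean difference of -0.09 against 0.12. Tpsb2, the tryptase gene, was 8.44 and 8.28 in C57BL/6J and 8.11 and 8.09 in DBA/2J, and its mean difference of 0.25 exceeded the within-strain SD of 0.11, in the direction opposite to Mcpt2. Mcpt1 was 5.56 and 5.77 in C57BL/6J and 5.91 and 5.55 in DBA/2J, so its parental difference changed sign with diet, from -0.36 on CD to 0.23 on HFD.

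Cpa3 and Mcpt4 varied continuously. Cpa3 ran from 7.12 (BXD43) through 8.04 to 9.09 (BXD97) on CD and from 7.52 (BXD80) through 8.31 to 9.36 (BXD69) on HFD. Mcpt4 ran from 7.44 (BXD100) through 8.18 to 8.84 (BXD97) on CD and from 8.01 (BXD83) through 8.40 to 9.08 (BXD69) on HFD. BXD97 was therefore the highest strain for both genes, and for Mcpt2, Cma1 and Tpsb2 too, on CD, and BXD69 was the highest for Cpa3 and Mcpt4 on HFD although it was in the low group for Mcpt2. Ranges of Tpsb2 (8.01 to 8.67 on CD and 7.93 to 8.62 on HFD), Cma1 (7.06 to 7.68 and 7.17 to 7.65) and Mcpt1 (5.25 to 5.91 and 5.16 to 5.83) were narrow, at or below the 41.6th percentile of all probesets on either diet.

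Whether a strain kept its level on the other diet was described over the 37 paired strains, after batch means were removed within each diet. The median correlation of a probeset between the diets was 0.141 over all probesets. Within the Mcpt2 groups, for which a pooled value has no meaning, r was 0.536 over the 10 low strains and 0.518 over the 27 high strains. Tpsb2 had r = 0.571 (0.784 over the 12 strains with both arrays in batch 1 and 0.514 over the 17 with both in batch 2), although its range was narrow. Cpa3 had r = 0.451 (0.407 and 0.639) and Mcpt4 r = 0.301 (0.114 and 0.382). Cma1 and Mcpt1 did not keep one sign within batches, with Cma1 at 0.202 (-0.413 and 0.415) and Mcpt1 at -0.254 (-0.443 and 0.117). The SD between strain means divided by the SD within strains was 1.35 for Tpsb2, 1.14 for Cpa3, 0.96 for Mcpt4, 0.85 for Cma1 and 0.54 for Mcpt1. For Mcpt2 it was 3.68, a value that holds the gap between its groups. The strain means still held part of the spread within strains, so this ratio overstates how far strains differed. It orders the genes but does not show whether strains differed more than the diets of 1 strain did.

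**Figure D2:**
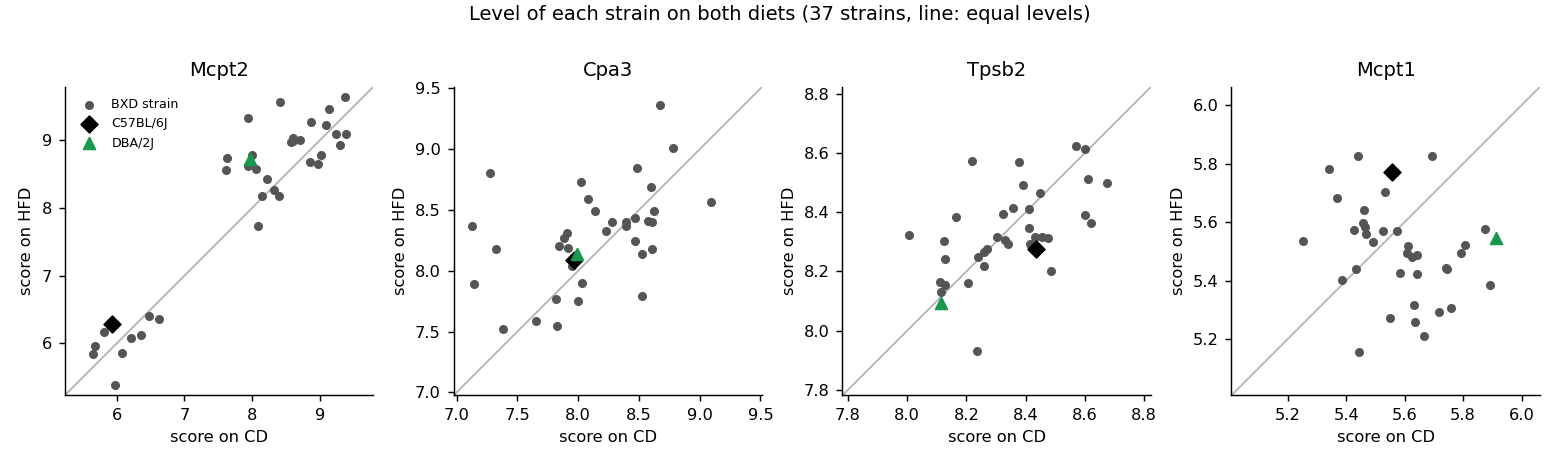
Score on CD (x axis) against score on HFD (y axis) for Mcpt2, Cpa3, Tpsb2 and Mcpt1, 1 point per strain over 37 strains, with the line of equal levels. Mcpt2 shows 10 strains low on both diets and 27 high on both, Cpa3 (r = 0.451) and Tpsb2 (r = 0.571) form loose diagonals, and Mcpt1 (r = -0.254) shows none.

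The members were next set against each other, strain by strain. Mcpt4 and Cpa3, a chymase and a carboxypeptidase gene on different chromosomes, had r = 0.894 over 42 strains on CD and 0.809 over 37 on HFD. The value held inside both Mcpt2 groups, at 0.899 and 0.920 in the low strains on CD and HFD and 0.950 and 0.795 in the high strains. These correlations are descriptions: the points share arrays, and strains are related.

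Mcpt2 followed the same 2 genes within its high strains. Over the high strains its r with Cpa3 was 0.836 on CD (n = 31) and 0.863 on HFD (n = 27), and with Mcpt4 it was 0.839 and 0.821. Over the low strains the r with Cpa3 was 0.382 on CD (n = 11) and 0.056 on HFD (n = 10), and with Mcpt4 it was 0.152 and -0.119. The difference between the groups of strains was not tested. Signal differed too: the Mcpt2 mean of the low strains was at the 15.3rd percentile of probeset means on CD and the 15.8th on HFD, against the 63.5th and 69.2nd in the high strains, and its part in the lower r of Mcpt2 there was not tested. The low strains overlapped with the high strains in the other proteases. Their Cpa3 ran from 7.12 through a median of 8.14 to 8.78 on CD, against 7.14 through 8.02 to 9.09 in the high strains. On HFD their Cpa3 ran from 8.09 through 8.42 to 9.36, against 7.52 through 8.19 to 8.84. Their Mcpt4 medians were 8.09 on CD and 8.38 on HFD, against 8.19 and 8.41 in the high strains, with overlapping ranges. Cma1 was somewhat lower in the low strains on CD, with a median of 7.32 (7.06 to 7.61) against 7.44 (7.24 to 7.68), and not on HFD, with 7.45 against 7.43. None of these genes split into separate groups with Mcpt2.

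**Figure D3:**
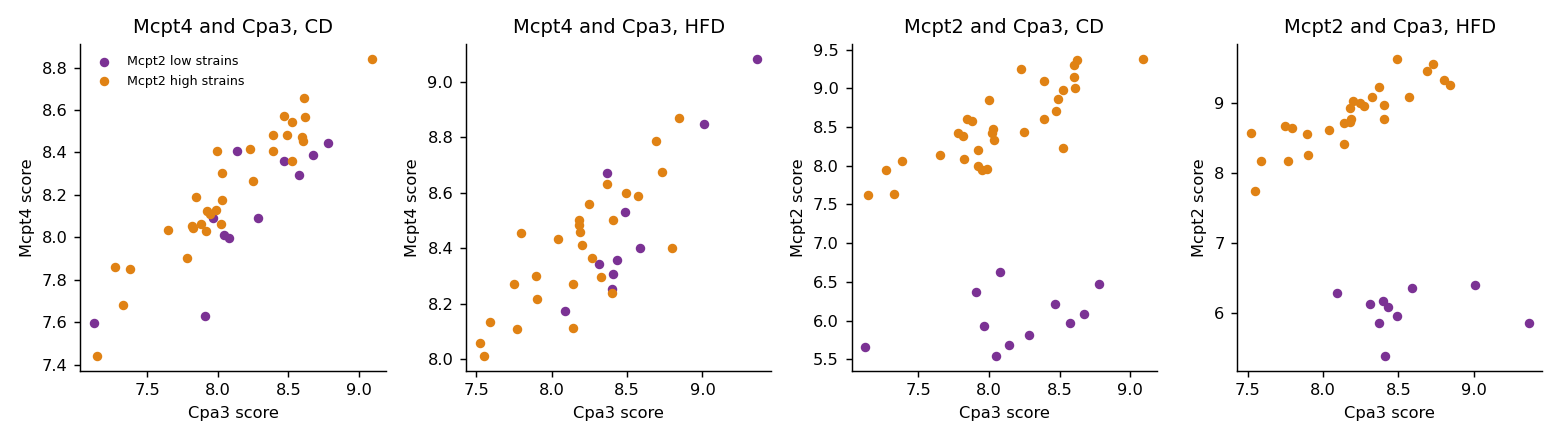
Cpa3 score (x axes) against Mcpt4 and Mcpt2 score (y axes), 1 point per strain, CD and HFD in separate panels, Mcpt2 low strains in purple and high strains in orange. Mcpt4 rises with Cpa3 in both groups (r = 0.899 and 0.950 in the low and high strains on CD, 0.920 and 0.795 on HFD), whereas Mcpt2 rises with Cpa3 in the high strains (r = 0.836 and 0.863) and lies apart in the low strains, whose span of Cpa3 (7.12 to 8.78 on CD, 8.09 to 9.36 on HFD) overlaps that of the high strains.

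The remaining members moved more loosely with Cpa3. Cma1 had r = 0.439 on CD and 0.506 on HFD, and Tpsb2 had 0.455 and 0.401. In the Mcpt2 high strains, Mcpt2 had r = 0.571 and 0.679 with Cma1 and 0.552 and 0.508 with Tpsb2. Mcpt1 had between -0.144 and 0.402 with the other members over all strains.

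To describe how far each protease went with other mast cell transcripts, the 9 mast cell markers that were not members were averaged into a score for each array, with batch means removed. The markers include Kit (the stem cell factor receptor), Fcer1a and Ms4a2 (the IgE receptor), Hdc (histamine synthesis) and Mrgprb1 and Mrgprb2 (receptors for basic compounds). Since this relation was in view when the genes were selected, the 14 correlations are a description, with no p-value, and Mcpt2 was taken within its groups. On CD, r with the score was 0.633 for Cpa3 (rho 0.606), 0.657 for Mcpt2 in the high strains (rho 0.650), 0.556 for Mcpt4 (rho 0.545) and 0.516 for Tpsb2 (rho 0.475). On HFD, it was 0.431 for Cpa3 (rho 0.463), 0.589 for Mcpt2 in the high strains (rho 0.603), 0.549 for Mcpt4 (rho 0.563) and 0.421 for Tpsb2 (rho 0.413). Cma1 had 0.323 on CD and 0.441 on HFD. Values near or below 0 were those of Mcpt1 (-0.089 and 0.056) and of Mcpt2 in its low strains (0.004 over 11 strains and -0.451 over 10). Both gave dim signals, whose part in these values was not tested. Without the 2 strains farthest from the median score, r lay between 0.449 and 0.654 over both diets for Cpa3, Mcpt4, Tpsb2 and Mcpt2 in the high strains.

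The relation was uneven over batches and markers. In batch 2 alone, r with the score was 0.778 and 0.488 for Cpa3 (CD and HFD), 0.717 and 0.568 for Mcpt4, 0.646 and 0.701 for Mcpt2 in the high strains and 0.538 and 0.557 for Tpsb2. In batch 1 alone, it was 0.371 and 0.373 for Cpa3, 0.231 and 0.531 for Mcpt4, 0.727 and 0.496 for Mcpt2 in the high strains and 0.468 and 0.288 for Tpsb2. For Cma1 it was 0.077 and 0.456 in batch 1 and 0.458 and 0.436 in batch 2. Of the single markers, Mrgprb1 was the closest to Mcpt4 (r = 0.71 on CD and 0.595 on HFD), to Cpa3 (0.639 and 0.517) and to Mcpt2 in the high strains (0.603 and 0.485). Tpsb2 was instead closest to Kit and Il1rl1 on HFD (0.483 and 0.494) and had only 0.163 with Mrgprb1. With Mrgprb1 left out of the score, r lay between 0.344 (Cpa3 on HFD) and 0.554 for the same 4 genes over both diets. With Gata2 alone, the 1 marker above the median probeset, it lay between 0.001 and 0.267.

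**Figure D4:**
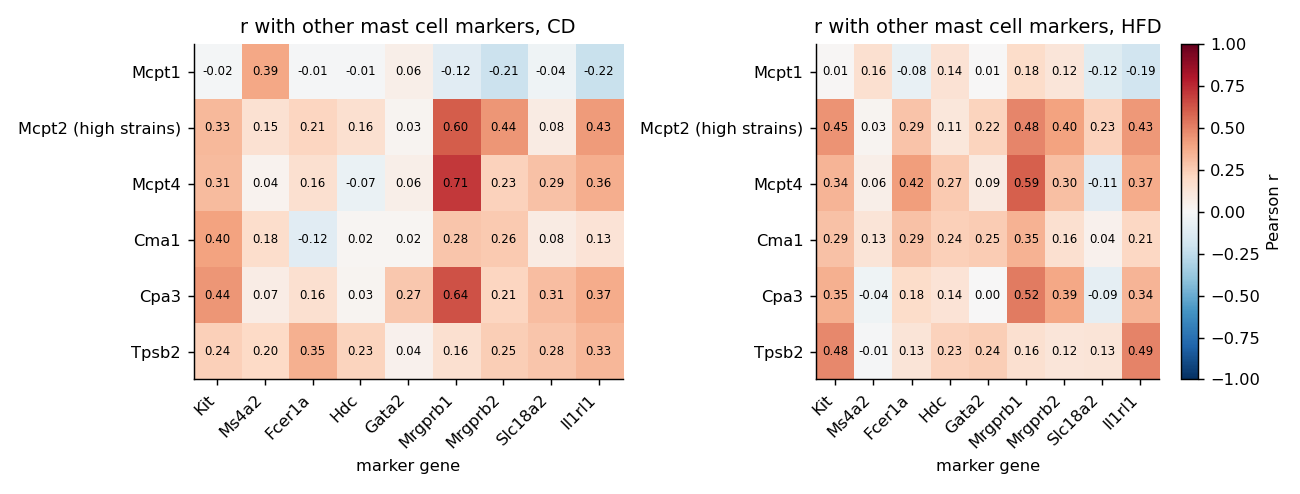
Pearson r over strains between each protease gene (rows) and each of 9 other mast cell markers (columns), batch means removed, CD on the left and HFD on the right, with Mcpt2 taken over its high strains. Mrgprb1 has the highest r with Mcpt4 (0.71 and 0.595) and Cpa3 (0.639 and 0.517), and Mcpt1 has no marker with a high r on both diets.

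Markers of some other cell types moved with Cpa3, Mcpt4 and Mcpt2, with lower values for Tpsb2. The mean level of 8 macrophage markers (array means between 8.46 and 9.31 on CD, 8.65 and 9.60 on HFD) had r = 0.648 and 0.742 with Cpa3, 0.528 and 0.550 with Mcpt4 and 0.604 and 0.491 with Mcpt2 in the high strains. That of 7 fibroblast and connective tissue markers (10.08 to 10.71 and 10.04 to 10.72) had 0.636 and 0.619 with Cpa3, 0.595 and 0.490 with Mcpt4 and 0.554 and 0.539 with Mcpt2 in the high strains. With Tpsb2, r was 0.232 and 0.285 for the macrophage markers and 0.447 and 0.387 for the fibroblast markers. The 8 skeletal muscle markers had -0.176 and -0.509 with Cpa3, those of skin keratinocytes -0.105 and -0.426 and those of T and NK cells -0.164 and -0.212. With Cpa3, red blood cell markers had -0.097 and -0.113, endothelial markers 0.415 and 0.222 and nerve sheath markers 0.364 and 0.151. Adipocyte markers had 0.294 and 0.6 with Cpa3, 0.15 and 0.451 with Mcpt4 and 0.227 and 0.544 with Mcpt2 in the high strains. Basophil markers, 4 of 5 of them in the lowest 25% of probesets, had -0.227 and -0.139 with Cpa3. That list shares Ms4a2 and Fcer1a with the mast cell markers. Cma1 had 0.297 and 0.47 with the fibroblast markers and 0.125 and 0.489 with the adipocyte markers. For Cpa3 the macrophage and fibroblast values were at least as high as those with the mast cell markers, and their part in the variation of the proteases was not tested.

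For each member, the 5 genes closest to it over the CD arrays were named, with their value on HFD beside it. The genes closest to Cpa3 were Islr (r = 0.749, 0.529 on HFD), Csf1r, the receptor for macrophage colony-stimulating factor (0.72, 0.68), Emp1 (0.711, 0.37), Fndc1 (0.706, 0.56) and Pcolce, an enhancer of collagen processing (0.704, 0.471). Those closest to Mcpt4 were the mast cell receptor gene Mrgprb1 (0.71, 0.595), Csf1r (0.669, 0.474), Mmrn1 (0.651, 0.355), Fndc1 (0.649, 0.209) and Fn1, which encodes fibronectin (0.636, 0.408). All of these values stayed above 0 on the diet not used to choose them. Those of Mcpt1 (mir-204, Gm6034, BC089597, Cxadr and Cts8) had r of 0.613 to 0.627 on CD and only -0.184 to 0.099 on HFD. Those of Tpsb2 (Gnb5, Ptafr, Frmpd4, Foxb1 and Spsb3) had 0.546 to 0.579 on CD and 0.042 to 0.282 on HFD.

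The genes closest to Mcpt2 were of another kind. They were Cma2 (r = 0.681 on CD, 0.438 on HFD), N6amt2 (0.65, 0.511), Xpo4, an exportin gene (0.642, 0.559), Mcpt9 (0.64, 0.468) and Taf9 (0.64, -0.005), over both Mcpt2 groups. Cma2 and Mcpt9 are chymase-family genes of the same cluster, and they were also the RefSeq neighbours closest to Mcpt2. They followed Mcpt2 within the high strains (0.761 and 0.539 for Cma2, 0.713 and 0.469 for Mcpt9, CD and HFD). N6amt2 and Xpo4 instead had 0.133 and 0.035, and 0.118 and -0.008, within the high strains, so they did not follow Mcpt2 there. In C57BL/6J and DBA/2J, N6amt2 was at 9.4 and 9.37 on CD and at 9.2 and 9.57 on HFD. Xpo4 was at 8.93 and 9.45 on CD and at 9.39 and 9.46 on HFD. Over the 20 genes closest to Mcpt2, 9 on CD and 6 on HFD were on chromosome 14, against 3.67% of all placed genes. For Mcpt4, on the same chromosome, there were 0 and 1 of 20, and for Cpa3, on chromosome 3, 0 and 1 of 20. For Tpsb2 there were 7 and 3 of 20 on chromosome 17, against 4.81% of all placed genes. These counts by chromosome were looked at after the values were seen. Cma2 and Mcpt9 had ranges much narrower than that of Mcpt2 (7.18 to 8.10 and 6.99 to 7.94 on CD) and no gap between the parents like that of Mcpt2, with Cma2 at 7.41 in C57BL/6J and 7.55 in DBA/2J on CD. Probe sequences were not used here, so any signal shared between related chymase genes cannot be told apart from their own.

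Cma1 was close to the same neighbours on CD, with r = 0.547 for Cma2 (0.321 on HFD) and 0.544 for Mcpt9 (0.189 on HFD), followed by Amelx, Dpysl3 and Krtap8-2, which had negative values on HFD (-0.181 to -0.077). Of the neighbours of Cpa3, Naaladl2 (0.468, 0.446) and Cp, the ceruloplasmin gene (0.412, 0.644), were the closest. The neighbouring tryptase genes of Tpsb2 were not close to it, with r = 0.14 on CD and 0.051 on HFD for Tpsab1 and 0.18 and -0.274 for Tpsg1. Its closest neighbours on CD were Cacna1h (0.351, 0.027 on HFD) and Clcn7 (0.27, 0.077). Those of Mcpt4, members aside, were Mcpt9 (0.584, 0.313) and Cma2 (0.564, 0.446). The RefSeq neighbours closest to Mcpt1 on CD, Nfatc4 (0.547) and Ripk3 (0.434), had -0.111 and -0.092 on HFD.

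The diet comparison was fitted over all probesets with limma, with diet and batch as terms, and p-values were adjusted by the Benjamini-Hochberg method over all 35556 probesets. Diet changed a large share of the muscle transcriptome: 38.1% of probesets were called, 18.9% higher and 19.3% lower on HFD. Of the 6 proteases, 2 were called, 1 in each direction, a share near that background. The median difference of the members was 0.085, against -0.00066 over all probesets. Pools of different strains are the replicates here, so these p-values measure the spread between strain pools.

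Mcpt4 was higher on HFD, by 0.226 (SE 0.0617, limma adjusted p = 0.0022), from a mean of 8.20 ± 0.30 (SD, n = 42) to 8.42 ± 0.24 (n = 37). It was higher on HFD in 28 of 37 paired strains, and the groups overlapped. In batch 1 alone the difference was 0.205 (limma adjusted p = 0.101) and in batch 2 alone 0.244 (adjusted p = 0.0367). Mcpt1 was lower on HFD, by -0.104 (SE 0.0374, limma adjusted p = 0.0213), from 5.61 ± 0.16 to 5.50 ± 0.17. It was higher on HFD in 16 of 37 paired strains, and the call was lost with strain as a block (-0.077, adjusted p = 0.138) and in each batch alone (-0.076, adjusted p = 0.418, and -0.126, adjusted p = 0.0606).

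Cpa3 did not pass (0.173, 95% interval -0.018 to 0.364, limma adjusted p = 0.151), although it went with Mcpt4 over strains and was higher on HFD in 22 of 37. Mcpt2 did not pass either (0.217, 95% interval -0.339 to 0.773, adjusted p = 0.572), and the fit held both of its strain groups in 1 spread. With strain as a block, the difference of Mcpt2 was 0.197 and was called (limma adjusted p = 0.0353), with 22 of 37 strains higher on HFD. Tpsb2 differed by -0.021 (95% interval -0.092 to 0.050, adjusted p = 0.68) and Cma1 by -0.004 (-0.064 to 0.057, adjusted p = 0.936), so both intervals were narrow around 0. Without BXD63 the difference was 0.243 for Mcpt4, -0.117 for Mcpt1, 0.182 for Cpa3 and 0.228 for Mcpt2, with no call changed.

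**Figure D5:**
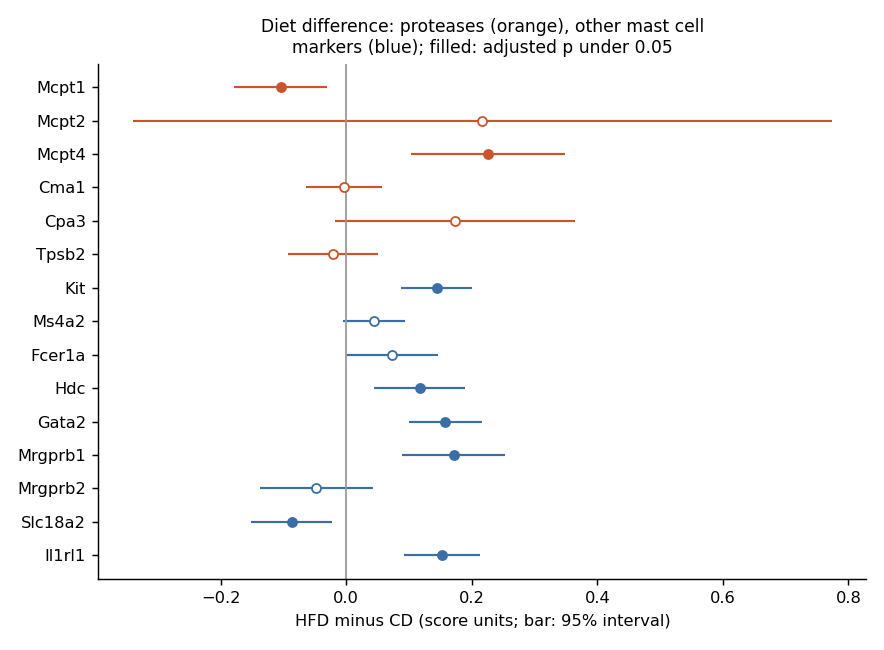
Difference HFD minus CD in score units (x axis) with its 95% interval from the limma fit, for the 6 proteases in orange and 9 other mast cell markers in blue, filled where the adjusted p was under 0.05. Mcpt4 (0.226) and 5 of the other markers are higher on HFD, Mcpt1 (-0.104) and Slc18a2 (-0.087) are lower, and the interval of Mcpt2 is the widest.

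Of the 9 other mast cell markers, 5 rose, beside 18.9% of all probesets called higher and 19.3% called lower. They were Mrgprb1 by 0.171 (limma adjusted p = 0.000516), Gata2, a transcription factor of mast cells and their precursors, by 0.158 (adjusted p = 7.98e-06), Il1rl1, the receptor for interleukin 33, by 0.152 (adjusted p = 3.58e-05), Kit by 0.144 (adjusted p = 2.08e-05) and Hdc by 0.117 (adjusted p = 0.00788). Slc18a2, a vesicle transporter of amines, fell by 0.087 (adjusted p = 0.0266), and Ms4a2, Fcer1a and Mrgprb2 did not pass. The mean level of the 9 markers ran from 6.72 to 7.0 on CD and from 6.81 to 7.12 on HFD, and its part in the difference of Mcpt4 was not tested.

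Over a wider list of 23 genes of mast cell growth, the IgE receptor and mast cell mediators, which includes those 9, 11 rose, 2 fell and 10 did not pass, and the same shares of all probesets (18.9% higher, 19.3% lower) stand beside this and the next counts. Those that rose included Srgn, which encodes the serglycin core protein that holds the proteases in the granule (0.261, adjusted p = 1.32e-07), Lyn, a kinase of the IgE receptor pathway (0.289, adjusted p = 3.28e-07), and Fcer1g, the shared receptor chain (0.278, adjusted p = 0.000545). Those 3 genes are also expressed by macrophages. Mitf, a transcription factor that mast cells need, fell by 0.11 (adjusted p = 1.93e-05), and Kitl, the ligand of Kit, differed by 0.043 (adjusted p = 0.438). Of 8 macrophage markers, 6 rose, among them Cd68 by 0.386 and Adgre1 by 0.371, and of 6 adipocyte markers 5 rose and 1 fell, with Lep higher by 1.58. Of 5 endothelial markers 4 rose, among them Emcn by 0.281 and Kdr by 0.203, and Gata2 is also expressed by endothelium. None of 5 basophil markers passed, and Ms4a2 and Fcer1a among them are also among the 9 mast cell markers. The part of these cells in the differences of the proteases was not tested.

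Of 17 other granule protease genes of the same families, 2 rose, 5 fell and 10 did not pass, beside the 38.1% of all probesets called, and their median difference was 0.005. Those that fell were the tryptase gene Tpsab1 (-0.18, limma adjusted p = 2.25e-07), the cathepsin G gene Ctsg (-0.22, adjusted p = 1.11e-05) and the granzyme genes Gzmb (-0.201), Gzmc (-0.211) and Gzmn (-0.101), and those that rose were Gzmg (0.316) and Cpb1 (0.346). Of the 20 RefSeq neighbours of Mcpt4, which overlap with this list, 1 rose and 7 fell, Mcpt1 and Ctsg among the latter, while Mcpt9 (0.049, adjusted p = 0.293) and Cma2 (0.079, adjusted p = 0.0933) did not pass. Of the 17 granule protease genes, those called gave dim signals, with group means between 5.35 (Gzmn on HFD) and 6.79 (Cpb1 on HFD) for all but Tpsab1.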

How the data were processed

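Quadriceps RNA from 79 strain pools was hybridised to Affymetrix Mouse Gene 1.0 ST arrays. Per the labels, the arrays were processed with Affymetrix Expression Console, whose version was not given in the sources used here. The authors deposited normalized scores (each array with mean 8.0 and SD 2.0), and the log base was not stated. The column named BXD92 was taken as the array labelled BXD92a. No arrays held the same values (r between 0.961 and 0.992). Each member had 1 probeset.

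Diet was tested with limma 3.58.1 in R 4.3.3 on all arrays and probesets, with diet and batch as terms, called at an adjusted p below 0.05. The study's t-test and other settings were run as alternatives. Mixtures and correlations used Python 3.11.15 with scikit-learn 1.9.0 and scipy 1.17.1, and the scripts were tested on simulated data. Groups were called separate at a BIC drop of 10 or more with Ashman's D above 2. Named genes were the members, the 5 genes closest to each on CD, their 2 closest RefSeq neighbours and the marker and pathway lists. The members and lists were chosen with earlier results of these data known, so the planned permutation p-values of the marker score are not reported. Strain names in the labels pair the diets: after group means were removed, CD and HFD arrays of a strain correlated at -0.138 to 0.396 (median 0.192), and 20 of 37 CD arrays matched their own HFD array best. The number of arrays limits the precision.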

Additional observations from a re-analysis of the deposited data

How the results depend on the processing

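The alternatives were a fit without the batch term, either batch by itself, the strain block, the methods' t-test, limma-trend, quantile normalization, median centring, probesets below the median level left out, and strains or markers left out. Over these, 242 of 296 values kept direction and side of the threshold, or moved by less than the spread. Among them are parental values, r between the diets, clusters and the marker score, which were in view at selection. The count therefore only describes the alternatives and lends no support to those values. The score without Mrgprb1 was chosen after seeing the data. Each gene had 1 probeset, so averaging probesets gave no value. The split of Mcpt2 was found on CD, on HFD and on the mean of both diets, and in no other member on any. Limits are the 1 array per strain and diet and the dim signal of most mast cell markers.

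With strain as replicate block, in the paired strains, Mcpt2 was called for diet (0.197, limma adjusted p = 0.0353), Mcpt1 was not (-0.077, adjusted p = 0.138) and Cma1 turned to 0.006; the block changed no other member's call. Cma1 also turned to 0.021 after quantile normalization and 0.013 after median centring, under which 8199 probesets were higher and 5758 lower, against 6703 and 6848. In batch 1 alone none (0) of the 6 members was called (Mcpt4 0.205, Mcpt1 -0.076; 4491 of 35556 probesets called against 13551), in batch 2 alone 1 (Mcpt4 was called and Mcpt1, at -0.126, was not; 8691 probesets called), and with probesets below the median level left out 1 of the 4 members then tested, Mcpt4 (5292 of 17778 probesets called), since Mcpt1 and Cma1 fell below it. At an unadjusted p under 0.05, batch 1 alone held 1 of the 6, Mcpt4. The cause of these changes was not tested, beyond fewer arrays or probesets.

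Parental differences moved for Mcpt1, to -0.355 on CD alone and 0.225 on HFD alone. Between the diets, r moved in batch 1 to -0.413 (Cma1), -0.443 (Mcpt1), 0.114 (Mcpt4) and 0.784 (Tpsb2), in batch 2 to 0.415 (Cma1), 0.639 (Cpa3) and 0.117 (Mcpt1), and as Spearman's rho to 0.8 for Mcpt2, whose pooled value spans 2 groups.

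The planned permutation threshold served only to choose which values of the marker score are listed here, and it is not read as a test. Where alternatives moved r with the score (CD then HFD) across 0 or across that threshold, r was as follows. In batch 1 alone it was 0.371 and 0.373 for Cpa3, 0.231 and 0.531 for Mcpt4, 0.727 and 0.496 for Mcpt2 high strains, 0.468 and 0.288 for Tpsb2, and on HFD 0.456 for Cma1 and -0.058 for Mcpt1. In batch 2 alone it was 0.458 and 0.436 for Cma1 and 0.042 for Mcpt1 on CD. With Gata2 alone it was 0.267 and 0.001 for Cpa3, 0.059 and 0.087 for Mcpt4, 0.028 and 0.22 for Mcpt2 high strains, 0.042 and 0.244 for Tpsb2, 0.254 for Cma1 on HFD and 0.058 for Mcpt1 on CD. Without Mrgprb1 it was 0.344 for Cpa3 on HFD. Cma1 on CD had 0.337 by Spearman's rho, 0.348 after quantile normalization and 0.439 without the 2 farthest strains. The Mcpt2 low strains on CD turned to -0.127 (rho), -0.37 (batch 2), -0.015 (batch means kept), -0.005 (without Mrgprb1), -0.375 (without the 2 farthest) and -0.008 (without the parents).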
